A study of Mus musculus with 12 samples.

Results

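Interferon-stimulated antiviral effector genes were followed across 4 conditions of BV-2 microglia. They are a list of 44 genes known to be induced by type I interferon, with the GBP, IFITM, schlafen and IRF families left out. The list was named by gene and not by these measurements, but it was chosen with earlier results of these data known. A probe set naming 1 gene was found for 42 of the 44, of 18194 genes with such a probe set. All 42 passed the minimum signal, a mean of 50 in at least 1 condition, and were tested among 12071 genes. Ifi44 and Isg15 were not analysed here: no probe set was annotated to Ifi44, and the probe set for Isg15 names several genes. BV-2 is an immortalized mouse cell line with microglial features. Cultures were exposed for 24 h to 50 µM luteolin + 50 ng/ml LPS, to 50 ng/ml LPS, or to 50 µM luteolin, or received neither (control), with 3 arrays per condition from 3 independent stimulation experiments. Luteolin, a plant flavone, was dissolved in DMSO, and LPS (lipopolysaccharide) is the outer membrane glycolipid of Gram-negative bacteria that activates Toll-like receptor 4. Whether control cultures received DMSO is not given in the sources used here. Signals below are deposited RMA intensities on a linear scale, listed for arrays 1, 2 and 3, and differences are on the log2 scale.

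Type I interferon is made when TLR4, through the adaptor TRIF, or cytosolic nucleic acid sensors activate IRF3 and IRF7. Secreted interferon binds its receptor on the same and neighbouring cells, and signalling from the receptor then switches on genes through the interferon-stimulated response element in their promoters. The products sense viral RNA, degrade it or block its translation, trap virions, and modify proteins with the ubiquitin-like ISG15. In microglia and macrophages, LPS alone can evoke this programme.

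The core of the response element was found in the promoters of some of these genes, and 4 promoters are printed because they pair its presence or absence with large and with small LPS differences. The RefSeq promoter table (GRCm38.p6, 250 bases before to 50 bases from the start site on) held 33 of the 44 genes, 8 of them with several starts. The core GAAANNGAAA, searched on both strands, lay in 14 of 44 promoters of these genes (31.8%), against 1131 of 32851 promoters of all genes (3.44%). Counted by gene, it was found for 13 of 33 (39.4%), against 3.99% of all genes. Capitals mark the core on either strand. A match in letters is a description and not a measured binding site, and a window without a match says only that these letters are not in it.
Ifit1 (chr19:34640639-34640938, plus strand): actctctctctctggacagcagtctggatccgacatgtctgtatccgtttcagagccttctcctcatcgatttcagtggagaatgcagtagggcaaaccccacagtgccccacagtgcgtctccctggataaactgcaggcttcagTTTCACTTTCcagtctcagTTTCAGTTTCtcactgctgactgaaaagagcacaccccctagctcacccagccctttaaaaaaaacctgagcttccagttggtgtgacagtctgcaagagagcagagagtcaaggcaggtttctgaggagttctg
Rsad2 (chr12:26456403-26456702, minus strand): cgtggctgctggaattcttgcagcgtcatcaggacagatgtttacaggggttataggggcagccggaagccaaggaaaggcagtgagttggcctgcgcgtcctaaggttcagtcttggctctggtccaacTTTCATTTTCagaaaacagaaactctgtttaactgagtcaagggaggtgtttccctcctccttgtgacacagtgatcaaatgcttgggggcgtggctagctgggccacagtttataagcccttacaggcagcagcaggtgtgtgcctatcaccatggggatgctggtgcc
Xaf1 (chr11:72301379-72301678, plus strand): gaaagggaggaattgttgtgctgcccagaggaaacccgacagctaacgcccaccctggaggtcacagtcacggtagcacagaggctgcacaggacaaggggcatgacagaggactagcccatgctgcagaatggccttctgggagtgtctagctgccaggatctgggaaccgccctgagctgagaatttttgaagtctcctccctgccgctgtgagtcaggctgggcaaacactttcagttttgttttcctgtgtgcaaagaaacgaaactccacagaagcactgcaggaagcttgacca
Ifi203 (chr1:173942443-173942742, minus strand): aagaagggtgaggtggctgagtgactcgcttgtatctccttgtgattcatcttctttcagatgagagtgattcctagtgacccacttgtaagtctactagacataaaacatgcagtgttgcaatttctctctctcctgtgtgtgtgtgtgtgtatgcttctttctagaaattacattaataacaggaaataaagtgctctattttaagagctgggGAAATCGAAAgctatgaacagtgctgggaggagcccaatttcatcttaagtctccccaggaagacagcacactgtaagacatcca
Ifit1 holds 2 cores and Rsad2 1 core upstream of the start, and both rose with LPS. No core lies in the Xaf1 window, yet Xaf1 rose 30.1-fold. Ifi203 has a core 35 bases before the start of 1 of its 2 listed promoters, and its signal with LPS overlapped that of control microglia, as measured by 1 probe set of low signal, while 3 other probe sets of Ifi203 name several genes and were not used. Among tested genes with a promoter in the table, the median LPS difference was 1.95 for the 12 with a core and 1.44 for the 19 without one, and the ranges overlapped (0.065 to 6.63 and -0.15 to 5.93).

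The arrays were checked for markers of microglia and of other brain cells. Of 12 markers of microglia and macrophages, Csf1r, Cd68, Tyrobp, Fcer1g, Ptprc and Trem2 were bright in every array (1659 or more), while Cx3cr1, P2ry12 and Tmem119, markers of microglia in the brain, were dim (17.3 to 120.4), and Spi1 (938 to 1806) and Itgam (209.9 to 633) lay between. Of these 12, Aif1, Tyrobp and Trem2 passed the test in a comparison only with the replicate number as a block. Aif1, which encodes IBA1, had 60, 33.5 and 106 in luteolin + LPS arrays, against 436, 182 and 141 in LPS arrays. All 3 luteolin + LPS arrays were below all LPS arrays, and the difference was -1.9 ± 0.44 (adjusted p = 0.0749, 0.0455 with the block). Tyrobp and Trem2 differed with LPS by -0.53 ± 0.14 (adjusted p = 0.0649, 0.0109 with the block) and -0.86 ± 0.23 (adjusted p = 0.0657, 0.00819 with the block), and Trem2 by -0.91 ± 0.23 between luteolin + LPS and luteolin (adjusted p = 0.0902, 0.00879 with the block). Their part in the results was not tested. The neuronal marker Rbfox3 gave 187 to 234 in the 12 arrays, and the other 15 markers of neurons, astrocytes, oligodendrocytes and fibroblasts with a probe set gave 103 or less. Median signals of the arrays ranged from 52.2 to 56.4, and the number of arrays, 3 per condition, limits the precision.

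1 array stood apart and has to be known before the results. The median of the 42 genes, as a log2 difference from the control mean, was 2.25, -0.15 and 0.83 in luteolin + LPS arrays 1, 2 and 3 and 2.56, 1.42 and 1.70 in LPS arrays. It was 0.13, 0.065 and 0.035 in luteolin arrays, and in control arrays, whose own mean it is measured from, it lay between -0.051 and 0.028. Luteolin + LPS array 2 therefore lay at the level of cultures without LPS: 0 of 42 genes were more than 1 above control there, against 34 and 17 in luteolin + LPS arrays 1 and 3. The 168 genes outside the 44 that LPS raised by more than 1 in log2 (adjusted p under 0.05) include Irf7 and Irf9, which are part of the interferon pathway. Of the 168, 69.0%, 45.2% and 75% were more than 1 above control in luteolin + LPS arrays 1, 2 and 3, against 91.7% to 95.8% in LPS arrays. The test that chose the 168 took its spread from all arrays, so genes low in luteolin + LPS array 2 alone passed less easily. The 42 were not chosen this way, so the 2 sets are not a like-for-like comparison. For luteolin + LPS against LPS, the medians and the genes given array by array are also given without this array.

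**Figure D1:**
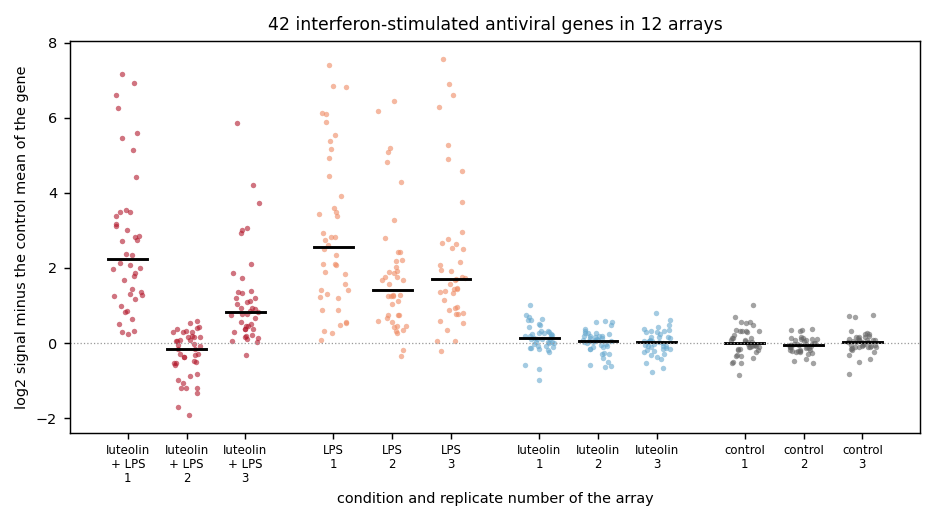
Each point is 1 of the 42 interferon-stimulated genes, as its log2 signal minus its mean in control arrays (y axis), in each of the 12 arrays (x axis, by condition and replicate number), and bars are medians. The medians are 2.25, -0.15 and 0.83 in luteolin + LPS arrays and 2.56, 1.42 and 1.70 in LPS arrays, and luteolin + LPS array 2 lies among the arrays without LPS.

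**Figure D2:**
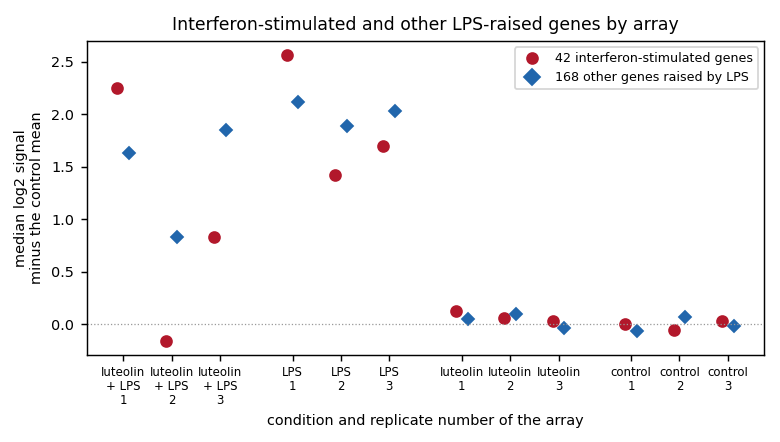
Median log2 signal minus the control mean (y axis) in each array (x axis) for the 42 interferon-stimulated genes (circles) and for 168 other genes raised by LPS (diamonds). The 168 genes were chosen for being higher in LPS than in control arrays, so their values in those arrays reflect that choice. The test used took its spread from all arrays, so luteolin + LPS and luteolin arrays also entered the choice. Genes low in luteolin + LPS array 2 alone passed less easily, and the 42 genes were not chosen this way. Luteolin + LPS array 2 has -0.15 for the interferon-stimulated genes and 0.84 for the others.

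LPS alone was compared with control microglia to see how far the programme was induced. Almost all of the genes were higher with LPS. In 38 of 42 every LPS array lay above every control array, against 11.5% of all genes tested, and 40 of 42 were higher in all 3 replicates, against 22.8% of all genes. The median difference was 1.88, and -0.038 over all genes tested. 13 genes rose at an adjusted p under 0.05 (1.96% of all genes tested did) and 0 fell (2.22% of all genes). With the replicate number as a block, 28 rose (4.30% of all genes) and 0 fell (6.78%). The 13 were Ifit1, Oasl2, Isg20, Zbp1, Mx1, Rsad2, Cmpk2, Bst2, Rtp4, Trim30a, Xaf1, Ifi35 and Tor3a. Of these, Ifit1, Mx1, Cmpk2, Rtp4 and Trim30a had means under 50 in control and luteolin arrays. They entered the test only through arrays with LPS, and Mx1 only through LPS alone (mean 82.6, against 13.9 in luteolin + LPS). Without the block the count depended on single arrays: it was 4 without control replicate 2 or LPS replicate 3, 5 without control replicate 1 or 3 or LPS replicate 1, 7 or 8 without luteolin + LPS replicate 3 or any 1 luteolin array, and 27 or 28 without luteolin + LPS replicate 1 or 2. Without luteolin + LPS replicate 2, 5.46% of all genes tested were called in either direction, against 4.18% with all arrays. Shares for the other arrays left out are not given here. Luteolin and luteolin + LPS arrays enter this comparison only through the shared spread, and the median stayed 1.88 without luteolin + LPS replicate 2. The medians within replicates 1, 2 and 3 were 2.31, 1.66 and 1.78. In whole cultures, more cells that carry a transcript and more transcript per cell cannot be told apart, here or in any comparison below.

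**Figure D3:**
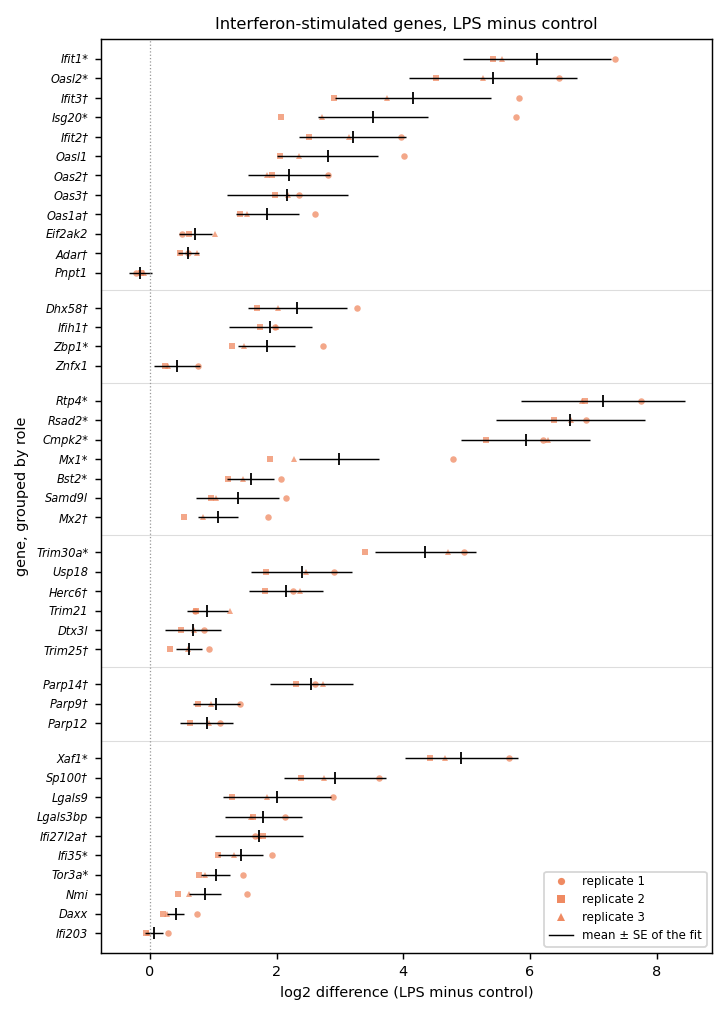
Log2 difference of LPS minus control (x axis) for each tested gene (y axis, grouped by role): symbols are the differences within replicates 1, 2 and 3, and the black mark and bar are the mean and its standard error from the fit. An asterisk marks an adjusted p under 0.05, and a dagger one under 0.05 with the replicate block only. Rtp4 (7.14) and Rsad2 (6.63) have the highest means, and with signals under 50 set to 50 they have 6.48 and 6.63. Pnpt1 is the 1 gene whose mean lies below 0 (-0.15).

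Luteolin + LPS was then compared with LPS alone to ask how far luteolin altered the programme. Most of the genes had lower means with luteolin, by an amount that differed between the 3 replicate numbers. The median difference was -1.0, and 0.016 over all genes tested, and within replicates 1, 2 and 3 it was -0.022, -2.14 and -0.79. 38 of 42 means were below 0, against 5682 of 12071 genes tested. 21 genes were lower in all 3 replicates, against 19.0% of all genes tested, while 0 were higher in all 3 (21.2% of all genes). None of the 42 passed the test (limma, 0 of 42, against 0.356% of all genes called lower and 0.149% called higher). At an unadjusted p under 0.05, 12 lay lower (7.98% of all genes). With the replicate block 1 gene, Mx1, was called (adjusted p = 0.0335; 2.84% of all genes called lower and 1.95% higher) and 20 lay lower at an unadjusted p under 0.05 (11.8% of all genes). Of the Mx1 signals in these arrays, only that of LPS array 1 exceeded 50, and with signals under 50 set to 50 the Mx1 difference was -0.89 and not called without the block. Without luteolin + LPS replicate 2 the median was -0.33 with 29 of 42 means below 0 and 0 called (0.165% of all genes were). Without luteolin + LPS replicate 1 the median was -1.78 with 6 called, and without LPS replicate 1 it was -0.56 with 0 called. For these last 2 fits the share of all genes called is not given here. In 2 of 42 genes, Mx1 and Nmi, every luteolin + LPS array lay below every LPS array, against 8.04% of all genes.

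**Figure D4:**
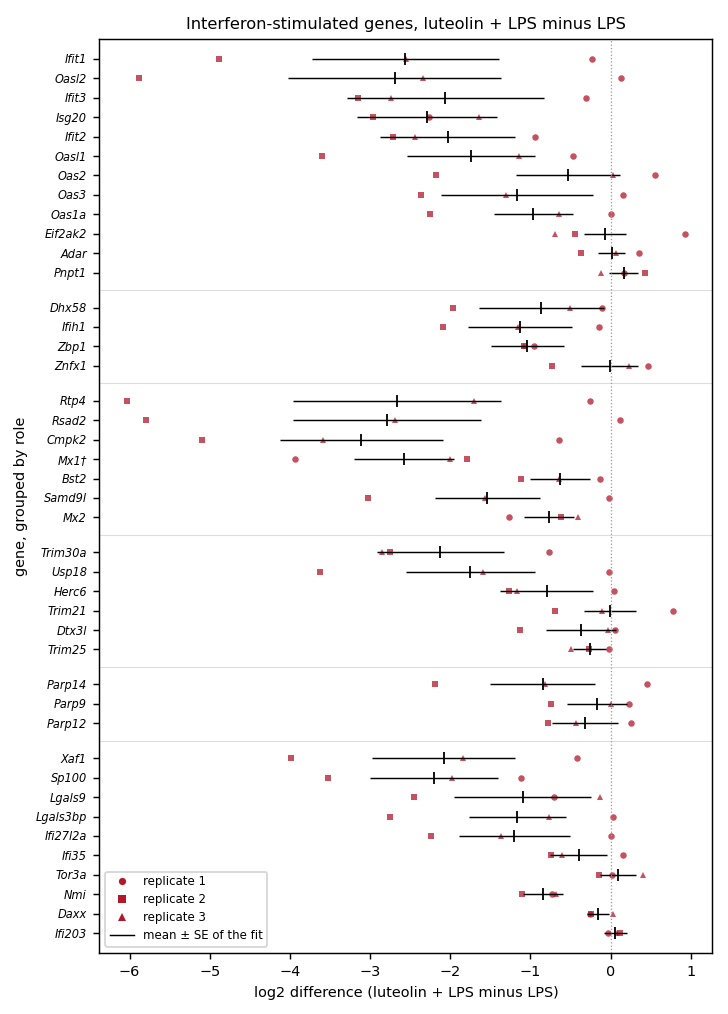
Log2 difference of luteolin + LPS minus LPS (x axis) for each tested gene (y axis, same order as in the plot of LPS minus control), with replicates as symbols and the mean ± standard error of the fit in black. Replicate 2 has the lowest value for most genes, and circles (replicate 1) lie near 0 with a median of -0.022. The dagger marks Mx1, under 0.05 with the replicate block only, whose signal exceeded 50 in LPS array 1 alone.

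Both comparisons use the same LPS arrays, so their values are set side by side below without a relation being drawn between them. Beside the counts by role, 1.96% of all genes tested rose with LPS (4.30% with the block). For luteolin + LPS against LPS, 0.356% of all genes were called lower and 0.149% higher. The 4 sensors of nucleic acids come first. With LPS, 1 of 4 rose, or 3 with the block. Their median difference was 1.87. Against LPS alone, 0 of 4 were called in luteolin + LPS and all 4 means lay below 0 (median -0.95; -0.16 with 2 of 4 below 0 without luteolin + LPS replicate 2). Dhx58 encodes LGP2, a RIG-I-like receptor without signalling domains. It gave 1550.5, 115 and 318 in luteolin + LPS arrays and 1675, 446 and 453 in LPS arrays. Its signals without LPS were 166, 124 and 145 in luteolin arrays and 174, 138 and 112 in control arrays. All LPS arrays stood above control, array 1 far above the others, and only luteolin + LPS array 2 was at the level without LPS. The LPS difference was 2.33 ± 0.78 (± SE throughout; adjusted p = 0.124, 0.0294 with the replicate block, 0.0073 to 0.308 over 25 alternatives). Luteolin + LPS differed from LPS by -0.86 ± 0.78 (adjusted p = 0.673), or -0.11, -1.96 and -0.51 within replicates 1, 2 and 3, and by 0.011 without luteolin + LPS replicate 2. Another Dhx58 probe set gave 2.63 with LPS, and a dim one 0.80. Ifih1 encodes MDA5, the sensor of long double-stranded RNA. Ifih1 read 1106, 121 and 363 in luteolin + LPS arrays, against 1222, 516 and 811 in LPS arrays. Luteolin arrays had 332, 174 and 198 and control arrays 310.4, 154 and 205, with array 1 highest in each condition. The Ifih1 difference with LPS was 1.9 ± 0.65 (adjusted p = 0.132, 0.0128 with the replicate block, 9.54e-04 to 0.298 over 25 alternatives), nearly the same in each replicate (1.98, 1.74 and 1.98). With luteolin it lay -1.13 ± 0.65 from LPS alone (adjusted p = 0.463, -0.33 without array 2). Zbp1 encodes a sensor of Z-form nucleic acid that can trigger necroptosis. Zbp1 signals were 234, 72.4 and 83.7 in luteolin + LPS arrays and 454, 153 and 177 in LPS arrays. They were 64.1, 78 and 61.5 in luteolin arrays and 68.1, 62.5 and 62.9 in control arrays. Each luteolin + LPS array was below the LPS array of its own number, including array 1. Zbp1 rose 3.58-fold with LPS (1.84 ± 0.45, adjusted p = 0.0478; under 0.05 in 12 of 25 alternatives, 0.00224 to 0.175). The difference of luteolin + LPS from LPS was -1.04 ± 0.45 (adjusted p = 0.316, -0.72 without array 2) and -0.96, -1.08 and -1.08 within replicates. Another Zbp1 probe set gave larger values, 3.09 with LPS and -1.94 for luteolin + LPS minus LPS. Znfx1, a helicase that binds double-stranded RNA, was the weakest of the 4, at 0.43 ± 0.36 with LPS (adjusted p = 0.534), and its LPS and control arrays overlapped.

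Of the 12 RNA-directed effectors, 3 rose with LPS (9 with the replicate block) and 0 fell, at a median difference of 2.50. In luteolin + LPS 0 of 12 were called against LPS, 10 means lay below 0, and the median was -1.45, or -0.49 with 8 below 0 without luteolin + LPS replicate 2. Ifit1, Ifit2 and Ifit3 encode tetratricopeptide proteins that bind viral RNA and block its translation. Ifit1 had signals of 2030.4, 25.9 and 279 in luteolin + LPS arrays, against 2393, 764 and 1639 in LPS arrays. It stayed under 50 without LPS, at 18.8, 24.7 and 26 in luteolin arrays and 14.8, 17.8 and 34.9 in control arrays. Luteolin + LPS array 1 was among the LPS arrays, array 3 was below them, and array 2 was at the level without LPS. Ifit1 rose 68.7-fold with LPS, or 28.8-fold with signals under 50 set to 50 (6.1 ± 1.17, adjusted p = 0.0172; under 0.05 in 21 of 25 alternatives, 3.62e-04 to 0.0653). Luteolin + LPS differed from LPS by -2.56 ± 1.17 (adjusted p = 0.34, -0.94 without array 2), and by -0.24, -4.88 and -2.56 within replicates. Ifit3 showed 4164, 67.3 and 176 in luteolin + LPS arrays and 5139, 595 and 1177 in LPS arrays. Without LPS it showed 93.3, 65.7 and 81.7 in luteolin arrays and 91.2, 79.7 and 88.5 in control arrays. The LPS arrays themselves differed widely here, array 1 lying several times above arrays 2 and 3. Its LPS difference of 4.15 ± 1.23 passed only with the replicate block (adjusted p = 0.0872 and 0.024; 0.00598 to 0.225 over 25 alternatives). The Ifit3 difference with luteolin was -2.06 ± 1.23 (adjusted p = 0.482, -0.84 without array 2). Oasl2 belongs to the 2'-5'-oligoadenylate synthetase family, whose enzymes make the activator of the antiviral nuclease RNase L. Oasl2 reached 4247, 26.8 and 428 in luteolin + LPS arrays and 3867, 1582 and 2156 in LPS arrays. Luteolin arrays gave 67.8, 63.7 and 32.5 and control arrays 43.9, 69.1 and 56.6, all near the minimum signal. In array 1 it was as high with luteolin as without, and in array 2 it was lower than in any control array. Oasl2 rose 42.5-fold with LPS (5.41 ± 1.32, adjusted p = 0.0471; under 0.05 in 12 of 24 alternatives, 0.00106 to 0.129). Its difference of -2.69 ± 1.32 between luteolin + LPS and LPS (adjusted p = 0.381, -0.81 without array 2) was 0.14, -5.89 and -2.33 within replicates.

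2 more RNA-directed effectors were picked after their values had been seen, as opposite cases. Isg20 encodes an exonuclease that degrades single-stranded RNA. Isg20 signals were 741, 59.3 and 186 in luteolin + LPS arrays, against 3568, 460.3 and 581 in LPS arrays. Luteolin arrays had 132, 127 and 88.6 and control arrays 65.1, 109.7 and 88.3. Each luteolin + LPS array was below its LPS partner, array 1 included. Isg20 rose 11.5-fold with LPS (3.52 ± 0.87, adjusted p = 0.0494; under 0.05 in 11 of 24 alternatives, 0.00277 to 0.14). The luteolin + LPS minus LPS difference was -2.29 ± 0.87 (adjusted p = 0.255, -1.41 without array 2) and -2.27, -2.96 and -1.64 within replicates. Oas2, an oligoadenylate synthetase, read 1095, 98.8 and 527 in luteolin + LPS arrays and 745, 449 and 515 in LPS arrays. It read 138, 140.1 and 156 in luteolin arrays and 107, 118 and 143 in control arrays. Arrays 1 and 3 were at least as high with luteolin as with LPS alone, and only array 2 was low. Oas2 differed by 2.19 ± 0.65 with LPS (adjusted p = 0.0868, 0.0404 with the replicate block; 0.00155 to 0.2 over 25 alternatives). The Oas2 difference between luteolin + LPS and LPS turned with 1 array: -0.53 ± 0.65 with all arrays (adjusted p = 0.768) and 0.45 without luteolin + LPS replicate 2. At the low end, Pnpt1, a mitochondrial exoribonuclease, had 1108, 993 and 745 in luteolin + LPS arrays and 987, 734 and 806 in LPS arrays. It had 856, 769 and 835 in luteolin arrays and 1156, 811 and 858 in control arrays, so all conditions overlapped. Pnpt1 differed by -0.15 ± 0.18 with LPS (adjusted p = 0.674) and by 0.16 ± 0.18 between luteolin + LPS and LPS (adjusted p = 0.745, 0.12 without array 2). 1 of the 2 dimmer probe sets of Pnpt1 gave 0.17 and -0.12. Of the remaining effectors, Ifit2, Oas1a, Oas3, Oasl1, Eif2ak2 (PKR, a kinase that halts translation) and Adar (an RNA editing enzyme) had LPS differences of 0.61 to 3.20, and Ifit2, Oas1a, Oas3 and Adar passed with the replicate block. For luteolin + LPS minus LPS, the Adar probe set used gave 0.016. Another bright Adar probe set gave 1.06 with LPS and -0.52 for luteolin + LPS minus LPS, and a dim one 0.24 and -0.10.

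Dynamin-like GTPases, viperin and other restriction factors made up 7 of the tested genes. 5 of 7 rose with LPS (6 with the block), and their median difference was 2.99, or 1.59 with signals under 50 set to 50. In luteolin + LPS 0 of 7 were called against LPS (1, Mx1, with the block), all 7 means lay below 0, and the median was -2.57. It was -1.54 with signals under 50 set to 50, and -0.66 with all 7 still below 0 without luteolin + LPS replicate 2. Rtp4 encodes a receptor chaperone with antiviral activity. Rtp4 had 4654, 43.6 and 1911 in luteolin + LPS arrays, against 5564, 2844 and 6238 in LPS arrays. Without LPS it had 35, 42.6 and 40.6 in luteolin arrays and 25.9, 24.4 and 55.2 in control arrays. Luteolin + LPS arrays 1 and 3 were far above all arrays without LPS, and array 2 was among them. Rtp4 rose 141-fold with LPS, or 89.4-fold with signals under 50 set to 50 (7.14 ± 1.29, adjusted p = 0.0131; under 0.05 in 23 of 25 alternatives, 5.03e-05 to 0.0539). Luteolin + LPS and LPS differed by -2.66 ± 1.29 (adjusted p = 0.373, -0.63 without array 2), with -0.26, -6.03 and -1.71 within replicates. A dim second Rtp4 probe set gave 1.91 with LPS. Rsad2 encodes viperin, which makes a chain-terminating nucleotide, and Cmpk2, its neighbour on chromosome 12, a nucleotide kinase. Rsad2 signals reached 13234, 142 and 2001 in luteolin + LPS arrays and 12194, 7843 and 12956 in LPS arrays. They were 109.9, 161 and 88.1 in luteolin arrays and 103, 94.8 and 130.1 in control arrays. Rsad2 with luteolin was thus as high as with LPS alone in array 1, lower in array 3, and not raised in array 2. Rsad2 rose 99.2-fold with LPS (6.63 ± 1.17, adjusted p = 0.0116), by 6.89, 6.37 and 6.64 within replicates, and passed in all 25 alternatives (9.52e-05 to 0.0486). The difference of luteolin + LPS from LPS was -2.79 ± 1.17 (adjusted p = 0.298, -1.06 without array 2) and 0.12, -5.79 and -2.69 within replicates.

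Cmpk2 gave 1046, 23.5 and 191 in luteolin + LPS arrays, against 1629.7, 802 and 2297 in LPS arrays. In luteolin arrays it gave 21, 32.8 and 18.3, and in control arrays 22.1, 20.3 and 29.6, all under 50. Each luteolin + LPS array was below the LPS array of its number, arrays 2 and 3 by most. Cmpk2 rose 60.9-fold with LPS, or 28.9-fold with signals under 50 set to 50 (5.93 ± 1.02, adjusted p = 0.00962; passed in all 24 alternatives that gave a value, 1.62e-04 to 0.0468). Its difference between luteolin + LPS and LPS was -3.11 ± 1.02 (adjusted p = 0.182; -0.64, -5.09 and -3.59 within replicates), -2.74 with signals under 50 set to 50 and -1.69 without array 2. A second Cmpk2 probe set gave 4.12 with LPS. Mx1 encodes a GTPase that blocks viral nucleocapsids and is listed by RefSeq as a transcribed pseudogene in the reference strain, as is Mx2. Mx1 signals were 20.8, 11 and 11.7 in luteolin + LPS arrays and 317, 38 and 46.7 in LPS arrays. They were 11.1, 10.7 and 13.5 in luteolin arrays and 11.5, 10.2 and 9.67 in control arrays. Only LPS array 1 was above the minimum signal of 50, yet all LPS arrays were above all others. Mx1 rose 7.92-fold with LPS (2.99 ± 0.63, adjusted p = 0.0252; under 0.05 in 16 of 22 alternatives, 6.00e-04 to 0.394). Mx1 lay -2.57 ± 0.63 from LPS alone in luteolin + LPS (adjusted p = 0.0897, 0.0335 with the replicate block, 0.0293 to 0.605 over 22 alternatives), -3.93, -1.79 and -2.0 within replicates and -2.41 without array 2. With signals under 50 set to 50, the Mx1 differences shrank to 0.89 and -0.89, neither past the threshold, and without LPS replicate 1 Mx1 fell under the minimum signal and was not tested. Bst2, the virion tether, rose 3.01-fold (adjusted p = 0.04), and Samd9l and Mx2 differed by 1.39 and 1.08, of which Mx2 passed with the block only (adjusted p = 0.0348).

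ISG15 is attached to proteins by ubiquitin-like enzymes, and 6 genes of this and the ubiquitin pathway were tested. Of these 1 rose with LPS (3 with the block), at a median difference of 1.53. Against LPS alone, 0 of 6 were called in luteolin + LPS, with all 6 means below 0 and a median of -0.58 (-0.25 with 4 below 0 without luteolin + LPS replicate 2). Trim30a encodes a tripartite motif protein that restrains Toll-like receptor signalling in the mouse. Trim30a read 546, 36.7 and 85.1 in luteolin + LPS arrays and 926, 248 and 615 in LPS arrays. It read 30.5, 30.9 and 44.7 in luteolin arrays and 29.8, 23.6 and 23.7 in control arrays, all under 50. Every luteolin + LPS array was below its LPS partner, array 1 the least. Trim30a rose 20.4-fold with LPS, or 10.4-fold with signals under 50 set to 50 (4.35 ± 0.79, adjusted p = 0.0133; under 0.05 in 21 of 24 alternatives, 3.03e-04 to 0.055). Luteolin + LPS lay -2.12 ± 0.79 from LPS (adjusted p = 0.241; -0.76, -2.75 and -2.85 within replicates, -1.27 without array 2). Usp18 encodes the protease that removes ISG15 and damps the interferon receptor. Usp18 signals were 4131, 191 and 1202 in luteolin + LPS arrays, against 4194, 2367 and 3625 in LPS arrays. They were 790.1, 655 and 655 in luteolin arrays and 562, 666 and 661 in control arrays. In luteolin + LPS array 2 Usp18 was lower than in any array without LPS. Usp18 differed by 2.39 ± 0.8 with LPS (adjusted p = 0.123, 0.0586 with the replicate block). Between luteolin + LPS and LPS it differed by -1.75 ± 0.8 (adjusted p = 0.343; -0.022, -3.63 and -1.59 within replicates, -0.57 without array 2). Herc6 encodes the main ISG15 ligase of the mouse. Herc6 had 1477, 271 and 349.6 in luteolin + LPS arrays and 1438, 649.9 and 784 in LPS arrays. Luteolin arrays had 408, 189 and 223 and control arrays 299, 185 and 152. LPS arrays were all above control, and luteolin + LPS array 1 was close to its LPS partner. The Herc6 difference with LPS was 2.15 ± 0.58 (adjusted p = 0.0649, 0.00246 with the replicate block; 0.00123 to 0.231 over 25 alternatives). Luteolin + LPS differed by -0.8 ± 0.58 from LPS (adjusted p = 0.583, -0.33 without array 2). Trim21, Trim25 and Dtx3l, ubiquitin ligases, had LPS differences of 0.62 to 0.90, and Trim25 passed with the block (adjusted p = 0.0398).

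**Figure D5:**
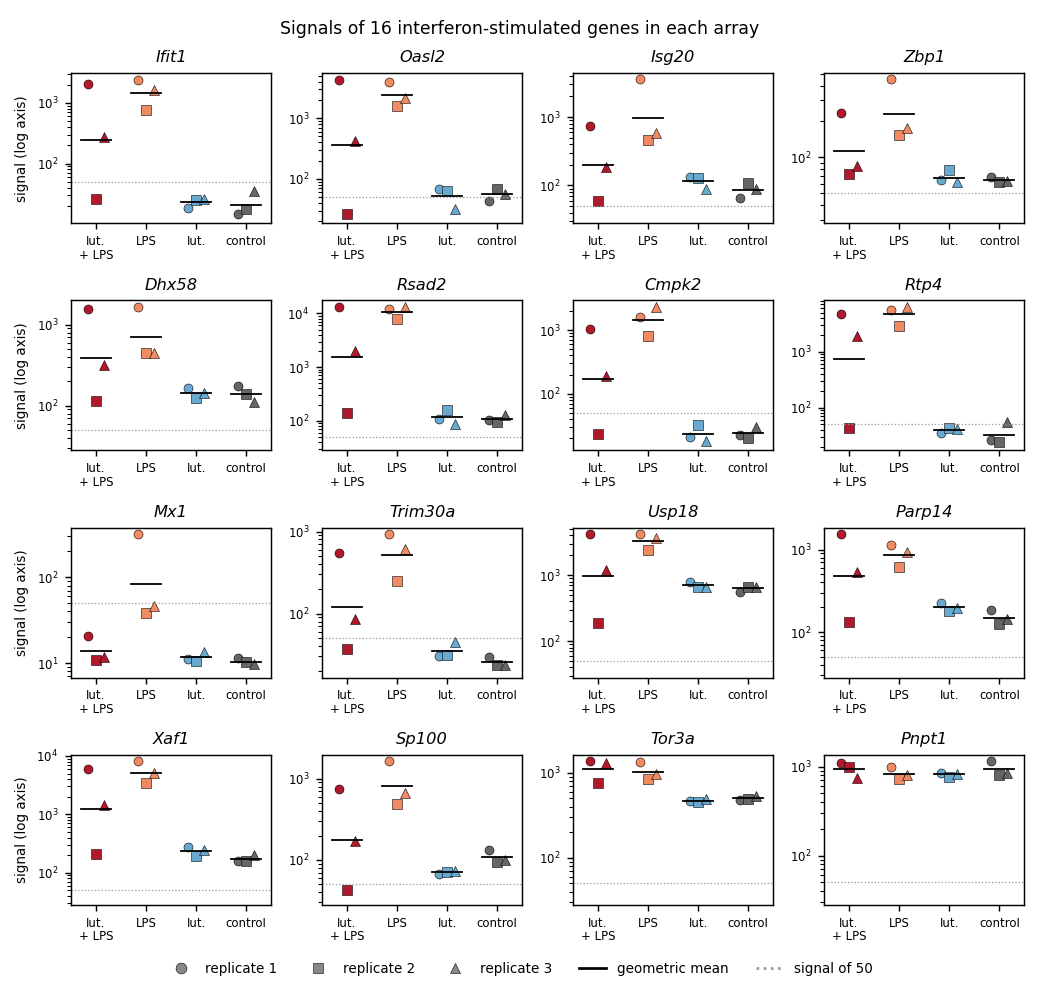
Signals (y axis, log scale) of 16 of the genes in luteolin + LPS, LPS, luteolin (lut.) and control arrays (x axis), with symbols for replicates 1, 2 and 3, a bar for the geometric mean and a dotted line at the minimum signal of 50. For Ifit1, Rsad2, Rtp4 and Xaf1, luteolin + LPS array 2 lies among or near the arrays without LPS while array 1 lies within or above the range of the LPS arrays. For Tor3a all luteolin + LPS arrays lie above the arrays without LPS.

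The 3 genes of the list named for the poly(ADP-ribose) polymerase (PARP) family gave smaller differences. 0 of 3 rose with LPS and 2 did with the block, at a median of 1.05, and 0 of 3 were called in luteolin + LPS against LPS (median -0.32; 0.13 with 0 below 0 without luteolin + LPS replicate 2). Parp14 signals were 1551, 134 and 539.7 in luteolin + LPS arrays and 1132, 610.3 and 947 in LPS arrays. They were 226, 178 and 199 in luteolin arrays and 186, 124 and 143 in control arrays. Luteolin + LPS array 1 was the highest of all 12, and array 2 was at the level of control. Parp14 differed by 2.54 ± 0.66 with LPS (adjusted p = 0.0549, 0.0134 with the replicate block; 7.19e-04 to 0.15 over 25 alternatives) and a dim second probe set by 0.98. For luteolin + LPS against LPS the Parp14 difference was -0.85 ± 0.66 (adjusted p = 0.61; 0.076 without luteolin + LPS replicate 2). Parp9, which works in a complex with Dtx3l, read 2740.4, 753 and 1509 in luteolin + LPS arrays and 2339, 1256 and 1501 in LPS arrays. It read 958, 878 and 889.6 in luteolin arrays and 877, 738 and 769 in control arrays. Only array 2 was lower with luteolin. Parp9 differed by 1.05 ± 0.38 with LPS (adjusted p = 0.145, 0.0407 with the replicate block; 0.00688 to 0.344 over 25 alternatives). The luteolin + LPS minus LPS difference of Parp9 was -0.17 ± 0.38 (adjusted p = 0.891) and 0.31 without luteolin + LPS replicate 2. Parp12 had 2404, 599 and 972 in luteolin + LPS arrays and 2011, 1029.7 and 1308 in LPS arrays. Luteolin arrays had 829.7, 714 and 769 and control arrays 929, 663 and 683, again with array 2 the low one of the luteolin + LPS arrays. It differed by 0.9 ± 0.42 with LPS (adjusted p = 0.255) and by -0.32 ± 0.42 between luteolin + LPS and LPS (adjusted p = 0.788), or 0.13 without luteolin + LPS replicate 2.

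The last 10 tested genes encode nuclear, mitochondrial, secreted and other induced proteins. 3 rose with LPS (5 with the block) at a median difference of 1.58, and 0 were called in luteolin + LPS against LPS, where 8 means lay below 0 (median -0.97; -0.16, again with 8 below 0, without luteolin + LPS replicate 2). Xaf1 encodes an antagonist of the apoptosis inhibitor XIAP. Xaf1 gave 6058, 212 and 1434 in luteolin + LPS arrays, against 8078, 3377 and 5139 in LPS arrays. Without LPS the signals were 280.5, 191 and 240.4 in luteolin arrays and 159, 158 and 204 in control arrays. Luteolin + LPS array 1 was within the range of the LPS arrays, array 3 was below it, and array 2 was among the luteolin arrays. Xaf1 rose 30.1-fold with LPS (4.91 ± 0.89, adjusted p = 0.0131; passed in all 25 alternatives, 1.46e-04 to 0.0487). Its difference between luteolin + LPS and LPS was -2.08 ± 0.89 (adjusted p = 0.305; -0.42, -3.99 and -1.84 within replicates, -0.82 without array 2). A dim second Xaf1 probe set gave 0.37 with LPS and 0.17 for luteolin + LPS minus LPS. Sp100 encodes a component of nuclear bodies. Sp100 signals were 757, 42.5 and 171 in luteolin + LPS arrays and 1635, 487 and 675 in LPS arrays. They were 67.1, 71.5 and 73.9 in luteolin arrays and 133, 93.2 and 101 in control arrays. All luteolin arrays lay below all control arrays, which held for 1 of the 42 genes and for 11.3% of all genes tested. In 4 of 42 all luteolin arrays lay above all control arrays (8.29% of all genes). Each luteolin + LPS array of Sp100 was below its LPS partner. Sp100 differed by 2.92 ± 0.8 with LPS (adjusted p = 0.0691, 0.02 with the replicate block; 0.00204 to 0.181 over 25 alternatives). The luteolin + LPS minus LPS difference was -2.2 ± 0.8 (adjusted p = 0.229; -1.11, -3.52 and -1.98 within replicates, -1.17 without array 2), and -1.07 with another Sp100 probe set. Lgals9 encodes galectin-9, a secreted lectin. Lgals9 read 4904, 320.4 and 1692 in luteolin + LPS arrays and 7999.9, 1758 and 1853 in LPS arrays. It read 1249.7, 929 and 828 in luteolin arrays and 1082, 719.6 and 517 in control arrays. Array 1 was the highest in every condition. Lgals9 differed by 2.01 ± 0.85 with LPS (adjusted p = 0.214, 0.0596 with the block) and by -1.1 ± 0.85 between luteolin + LPS and LPS (adjusted p = 0.611, -0.041 without array 2).

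2 genes of this group, Nmi and Tor3a, were described further after their values had been seen. Nmi encodes a partner of STAT proteins and of the Ifi35 product. Nmi had 1548, 759.6 and 1171 in luteolin + LPS arrays, against 2561, 1637 and 1884 in LPS arrays. It had 1024, 1111 and 1002 in luteolin arrays and 883, 1200.5 and 1232 in control arrays. All 3 luteolin + LPS arrays were below all 3 LPS arrays and spanned the range without LPS. The Nmi difference was 0.87 ± 0.25 with LPS (adjusted p = 0.0813). Between luteolin + LPS and LPS it was -0.84 ± 0.25 (adjusted p = 0.146, 0.0853 with the block), with -0.73, -1.11 and -0.69 within replicates and -0.56 without array 2. Tor3a encodes an ATPase of the endoplasmic reticulum. Tor3a signals were 1369.7, 758 and 1284 in luteolin + LPS arrays and 1348, 838 and 969 in LPS arrays. They were 461, 453 and 486 in luteolin arrays and 484, 491 and 533 in control arrays. Even luteolin + LPS array 2 was above every array without LPS. Tor3a rose 2.05-fold with LPS (1.04 ± 0.22, adjusted p = 0.0278; under 0.05 in 16 of 25 alternatives, 0.00188 to 0.112) and differed by 0.094 ± 0.22 between luteolin + LPS and LPS (adjusted p = 0.897, 0.36 without array 2). Its other 2 probe sets gave 1.03 and 1.08 with LPS. Daxx, a histone chaperone, had 1049, 886 and 1089 in luteolin + LPS arrays and 1257, 1049.8 and 1069 in LPS arrays. Daxx had 718, 922 and 805 in luteolin arrays and 754, 906 and 888 in control arrays, so LPS arrays were above control by a small margin. It differed by 0.41 ± 0.14 with LPS (adjusted p = 0.127) and by -0.16 ± 0.14 between luteolin + LPS and LPS (adjusted p = 0.655, -0.070 without array 2). Ifi203, of the PYHIN family of DNA-binding proteins, gave 129, 100.4 and 114 in luteolin + LPS arrays and 131, 92.2 and 108 in LPS arrays. Ifi203 gave 107, 109.9 and 116 in luteolin arrays and 108, 96.3 and 109.7 in control arrays, and all conditions overlapped. Its differences were 0.065 ± 0.14 with LPS (adjusted p = 0.833) and 0.059 ± 0.14 between luteolin + LPS and LPS (adjusted p = 0.899, 0.15 without array 2). Ifi35, Lgals3bp and Ifi27l2a differed by 1.44, 1.79 and 1.72 with LPS, of which Ifi35 rose (adjusted p = 0.0485) and Ifi27l2a passed with the block only (adjusted p = 0.023).

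Luteolin + LPS was also compared with luteolin alone, which gives the LPS response in the presence of luteolin. All 42 means were above 0, against 6063 of 12071 genes tested, with a median of 0.78 against 0.0014 over all genes. But 1 gene rose, Tor3a (2.36-fold, 1.24 ± 0.22, adjusted p = 0.0199, under 0.05 in 18 of 25 alternatives, 0.00111 to 0.0982). Of all genes, 1.81% were called, or 4.59% with the replicate block, again with Tor3a as the only 1 of the 42. The medians within replicates 1, 2 and 3 were 1.92, -0.24 and 0.82. Without luteolin + LPS replicate 2, 13 of 42 rose (1.90% of all genes were called) and the median was 1.5, and without that array and with the replicate block 22 were called (4.63% of all genes). Without luteolin + LPS replicate 1 or 3, or without any 1 luteolin array, 0 were called. Of the 31 genes with an LPS difference over 1, the median gene kept 47.5% of that log2 difference with luteolin, and Tor3a had the highest share, 119%. The 31 were chosen by the same LPS difference that the share is taken of, which tends to lower the share. Signals under 50 were left as they were. Within replicates 1, 2 and 3, the median difference with luteolin was 86.3%, -14.2% and 45.4% of the median difference without it.

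Luteolin without LPS gave differences from control of less than 1 for each of the 42 genes. 0 of 42 were called against control (0 of 12071 genes, 0%, and 0.282% with the replicate block, none of them of the 42), 0 had an unadjusted p under 0.05 (9.09% of all genes), and the differences lay between -0.67 for Samd9l and 0.57 for Trim21 with a median of 0.060. The interaction, which asks whether luteolin changed the LPS difference, had a median of -1.01, against 0.034 over all genes tested. 40 of 42 means lay below 0, against 5307 of 12071 genes. 25 lay below 0 in all 3 replicates, and the share of all genes that did is not given here. Without luteolin + LPS replicate 2 the median of the interaction was -0.36, with 32 of 42 below 0. 0 of 42 passed the test with or without the block (0% of all genes in both), and an unadjusted p under 0.05 was found for 2 without the block (3.15% of all genes) and 8 with it (6.61%). Adjusted p-values were 0.999 without the block and 0.623 or more with it.

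The genes that induce and carry the interferon signal were followed with a list of 25, of which 20 were tested. 4 of 20 rose with LPS (1.96% of all genes tested did), or 7 with the replicate block (4.30%), and 0 fell (2.22%, 6.78% with the block). In luteolin + LPS against LPS 0 were called (0.356% of all genes lower and 0.149% higher). Cd14, Ikbke, Irf7 and Irf9 were the 4. Ifnb1 encodes interferon beta, and its signals of 37, 26.4 and 37 in luteolin + LPS arrays and 51.7, 28.8 and 28 in LPS arrays were near or under the minimum. In luteolin arrays Ifnb1 had 29.2, 25.6 and 26.7 and in control arrays 22.9, 23.9 and 26.7, so it was not tested. Irf7 encodes the factor that amplifies interferon production and belongs to a family left out of the 44. Irf7 gave 2913, 82.8 and 759 in luteolin + LPS arrays, against 5054, 2036 and 1649 in LPS arrays. It gave 107, 104 and 89 in luteolin arrays and 119.7, 135 and 78.5 in control arrays. Irf7 rose 23.7-fold with LPS (4.57 ± 0.97, adjusted p = 0.0263), and its luteolin + LPS minus LPS difference was -2.18 ± 0.97 (adjusted p = 0.326; -0.8, -4.62 and -1.12 within replicates), so array 2 was the low one here too. Irf9 and Stat2, subunits of the factor that binds the response element, differed by 1.94 ± 0.46 (adjusted p = 0.0431) and 1.18 ± 0.62 (adjusted p = 0.31) with LPS. Stat2 signals were 597, 61 and 226 in luteolin + LPS arrays and 579.8, 329.6 and 359.6 in LPS arrays. They were 161, 126 and 116 in luteolin arrays and 217, 184 and 149 in control arrays, and in luteolin + LPS array 2 Stat2 was lower than in any other array. Ddx58, which encodes the RNA sensor RIG-I, differed by 2.32 ± 0.65 with LPS (adjusted p = 0.074, 0.0156 with the replicate block). Irf1, another factor of the family, differed by 1.18 ± 0.32 with LPS (adjusted p = 0.0686, 0.0185 with the block). Ifnar2, a chain of the interferon receptor, differed by 0.44 ± 0.15 with LPS (adjusted p = 0.134, 0.0322 with the block) and by 0.51 ± 0.15 between luteolin + LPS and luteolin (adjusted p = 0.156, 0.0295 with the block). Upstream of interferon, Ikbke, a kinase of IRF3 and IRF7, rose 4.22-fold with LPS (2.08 ± 0.3, adjusted p = 0.00411) and had 1863, 754 and 1909 in luteolin + LPS arrays, against 1668, 1711 and 2013 in LPS arrays. Tlr4, Ticam1 (which encodes TRIF), Irf3, Mavs and Sting1 had LPS differences between -0.37 and 0.10, and none passed. Tlr4 lay -0.58 ± 0.22 from luteolin alone in luteolin + LPS (adjusted p = 0.3, 0.0444 with the block).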

How the data were processed

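Total RNA from 12 BV-2 cultures was hybridized to Affymetrix Mouse Genome 430 2.0 arrays. The labels name BV-2 cells throughout except for RNA extraction, where another cell name, PUER, is given, and they name a whole-transcript, sense-strand labelling kit, which is not the usual one for this array; which applies was not settled here. The deposited values are intensities on a linear scale, summarized for 45101 probe sets from the probe signals by the authors with RMA, which corrects background and equalizes the arrays' distributions, so a shift shared by most genes would not be seen. No detection calls are in the table, and dim signals are compressed. For this work log2 was taken, and 34958 probe sets naming 1 gene in the platform annotation were kept (34754 of them matched by gene ID to RefSeq, GRCm38.p6). Each gene is represented by its brightest probe set over the 12 arrays, and genes with a geometric mean of 50 or more in at least 1 condition were tested. limma (3.58.1, R 4.3.3) was fitted to all 12 arrays with the 4 conditions as terms, and p-values were adjusted by Benjamini-Hochberg over 12071 genes, with a threshold of 0.05. The study's own test works on single probes, which were not used here. The fit was tested on simulated data with independent values and, for each gene, the same spread in all 4 conditions. Shared deviations of same-numbered arrays and a spread that differs between conditions were not covered by it. Figures were drawn with matplotlib 3.10.9.

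Replicate numbers were read from the sample titles, and the study reports 3 independent stimulation experiments. That 1 number stands for 1 experiment across conditions is not stated and was assumed. Same-numbered arrays deviated together from their condition means (18 pairs, r = 0.10 to 0.59, median 0.42, against a median of -0.30 for different numbers). The fit reported had no block, and values from a fit blocked on replicate are given where they change a call among the genes named. Genes are given array by array if they had 1 of the 3 largest LPS differences of their role, had 1 of the 3 smallest LPS differences of all, or were called in luteolin + LPS against LPS, luteolin against control or the interaction, with or without the block. Tor3a, Nmi, Isg20 and Oas2 were added after their values had been seen. The rule also listed Ifi44 by name, because the study measured it by qRT-PCR, and it was not analysed here. The genes and lists were chosen with earlier results of these data known. Alternatives changed the block, the arrays and samples in the fit, their weights, the moderation, the minimum signal, the probe sets and the centring.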

Additional observations from a re-analysis of the deposited data

How the results depend on the processing

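The 13 genes raised by LPS became 28 with the replicate block and 27 with the block as a random term. They became 20 with only the 6 arrays of the contrast and 36 with array weights. With only unmarked probe sets, those without _s, _x or _a in their names, 5 were called. Of the 13, Oasl2, Isg20, Mx1, Cmpk2 and Trim30a have no unmarked probe set and were not tested in that fit. Leaving out 1 array gave 4 to 28. The 0 genes of luteolin + LPS against LPS became 1 with the replicate block, 1 with the random block, 1 with array weights, and 0 to 6 without 1 array. The 1 gene of luteolin + LPS against luteolin became 0 with only the 6 arrays of the contrast, 0 with unmarked probe sets, 5 with array weights, and 0 to 13 without 1 array. Some alternatives were chosen after seeing the data. With the replicate block and luteolin + LPS array 2 left out, 36 were called for LPS against control (13.8% of all genes). For luteolin + LPS against luteolin 22 were called (4.63% of all genes). With all 4 arrays of number 2 left out these counts were 5 and 3. Where no share of all genes called is given here or above, a general rise in calls is not set apart. The median of luteolin against control, 0.060, became 0.021 with arrays centred on their medians, 0.014 without number 2, and 0.023 to 0.10 without 1 array. Leaving out a luteolin or luteolin + LPS array changes the LPS against control count only through the shared spread and the genes tested. The cause of the other shifts was not tested.

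Signs turned for some genes in comparisons where they were not called. With LPS, Ifi203 moved to -0.066 with array weights and ranged from -0.067 to 0.19 without 1 array. Pnpt1 moved to 0.018 with the mean of its probe sets, to 0.17 with unmarked ones (and to -0.12 in luteolin + LPS against LPS), and ranged from -0.27 to 0.0032 without 1 array. In luteolin + LPS against LPS, Parp9 moved to 0.079 with array weights, to 0.22 with the block and without array 2, and to 0.12 without number 2. Parp12 moved to 0.012 with the block and without array 2, and Oas2 to 0.38 with the block and without array 2 and to 0.29 without number 2. Without 1 array the ranges were -0.62 to 0.31 for Parp9, -0.87 to 0.13 for Parp12, -1.29 to 0.45 for Oas2, -1.69 to 0.076 for Parp14, -1.87 to 0.011 for Dhx58, -0.063 to 0.19 for Ifi203 and -0.063 to 0.36 for Tor3a. The replicate block changed no call of luteolin against control or of the interaction. Without 1 array of a condition, the remaining 2 are assumed to vary like the other conditions.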
